A study of Homo sapiens with 6 samples.

Results

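GDA encodes guanine deaminase, and its mRNA was 2.63-fold higher in RWPE1-183FC cells than in RWPE1-CTRL cells. It was set beside 5 other enzymes of purine salvage and breakdown, XDH, PNP, HPRT1, APRT and ADA, to ask whether they shared this difference. GDA was selected on its difference between these same arrays, so its values are a description and carry no test. The other 5 enzymes were included for their function. All 6 were found among the 14884 genes that the array annotation names, each at its brightest transcript cluster. None of the other 5 enzymes passed the test in either direction. Of all 9583 genes tested with the filter, only 0.939% were called different in either direction. At that share, no call among so few enzymes does not set them apart from other genes. ADA was removed by the filter on genes and was tested only in fits that kept it.

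RWPE-1 is a human papillomavirus-immortalised line of benign prostate epithelium. RWPE1-183FC cells carried a lentivirus with the full miR-183 cluster primary transcript, and RWPE1-CTRL cells carried the same vector with a scrambled sequence. Both were polyclonal populations sorted for the vector's GFP, and each group had 3 biological replicates with 1 array each. No untransduced cells were analysed here, so an effect of the vector on both groups cannot be told apart from the unmodified state of the line. Values are log2 expression after RMA normalisation, on which a difference of 0.585 is 1.5-fold.

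Purine bases and nucleosides are either broken down or returned to the nucleotide pool. ADA deaminates adenosine to inosine, and PNP splits inosine and guanosine into hypoxanthine and guanine. HPRT1 returns hypoxanthine and guanine to IMP and GMP, and APRT returns adenine to AMP. GDA takes guanine out of this cycle by deaminating it to xanthine, which XDH, a molybdenum enzyme, oxidises to urate. GDA and HPRT1 thus compete for guanine. GDA is also known as cypin, which in rat neurons binds a synaptic scaffold protein.

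The cluster that RWPE1-183FC cells overexpressed gives rise to 3 mature 5p miRs, shown because they are the agent that separates the groups. They lie on the minus strand of chromosome 7 in GRCh38.p14 and were taken from RefSeq. Capitals mark the seed, bases 2 to 8, with which a miR pairs with its targets.
hsa-miR-183-5p (chr7:129774967-129774988): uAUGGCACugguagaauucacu
hsa-miR-96-5p (chr7:129774739-129774761): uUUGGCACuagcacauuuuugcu
hsa-miR-182-5p (chr7:129770447-129770470): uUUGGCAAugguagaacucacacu
The 3 seeds share the letters UGGCA. Whether a transcript of the 6 enzymes holds a match to a seed was not tested.

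The array features of the overexpressed transcript followed the labels for MIR96 and MIR183. MIR96 was at 5.19, 5.54 and 5.93 in RWPE1-183FC replicates 1, 2 and 3, against 2.46, 2.67 and 1.92 in RWPE1-CTRL. MIR183 was at 4.05, 4.42 and 4.55 in RWPE1-183FC, against 3.03, 2.27 and 2.31 in RWPE1-CTRL. MIR182 overlapped between the groups, at 3.11 to 3.44 in RWPE1-183FC and 2.67 to 3.24 in RWPE1-CTRL. It was removed by the filter and lay below the array median on all 6 arrays. Its overlap therefore does not show that the mature miR was unchanged. By RT-qPCR, the paper reports overexpression of every mature miR of the cluster in these cells. The medians of the 6 arrays lay between 3.82 and 3.86, and the arrays correlated at 0.974 to 0.988 with one another over genes. Of the measured basal and luminal markers, the keratins KRT5, KRT14 and KRT18 were the highest on every array. Their lowest value was the 8.70 of KRT14 in RWPE1-183FC replicate 2. The other measured markers of these lists were lower. Over the 6 arrays DST was at 7.32 to 7.67, KRT19 at 5.34 to 6.97, KRT8 at 5.31 to 6.22 and KRT15 at 4.21 to 5.59. KLK2, KLK3 and HOXB13 lay between 3.63 and 4.48. Of 4 measured basal markers KRT15 was called higher in RWPE1-183FC (log2 difference 0.96), while KRT5 was at -0.20 with no overlap, KRT14 at -0.09 and DST at 0.05. Of 6 measured luminal markers KRT19 was called lower (-1.11), while KRT8 was at 0.28 and the others at -0.17 to 0.02. The measured smooth muscle markers, 2 of 6 listed, averaged 4.48 to 4.98 in RWPE1-183FC and 4.03 to 4.27 in RWPE1-CTRL. DES carried this (log2 difference 1.06, called), and LMOD1 was at 0.01. The measured fibroblast markers, 3 of 8 listed, averaged 3.14 to 3.40 in RWPE1-183FC and 3.18 to 3.46 in RWPE1-CTRL. The endothelium markers, 4 of 6 listed, averaged 3.55 to 3.70 in RWPE1-183FC and 3.47 to 3.81 in RWPE1-CTRL. The leukocyte markers, 2 of 6 listed, averaged 5.74 to 6.15 in RWPE1-183FC and 5.76 to 6.34 in RWPE1-CTRL, near the luminal averages. The part of these markers in the values below was not tested.

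GDA was at 6.22, 5.83 and 6.70 in RWPE1-183FC replicates 1, 2 and 3. In RWPE1-CTRL it was at 4.21, 4.81 and 5.55. The groups did not overlap, and GDA was above the array median on all 6. The means were 6.25 ± 0.43 in RWPE1-183FC and 4.86 ± 0.67 in RWPE1-CTRL (SD, n = 3 each), a log2 difference of 1.40. The lowest RWPE1-183FC array was 0.28 above the highest RWPE1-CTRL array. This gap was smaller than every gap between neighbouring arrays within a group, which were 0.47 and 0.39 in RWPE1-183FC and 0.74 and 0.60 in RWPE1-CTRL. The size of the difference varied with the replicate number, at 4.05-fold for replicate 1, 2.03-fold for replicate 2 and 2.22-fold for replicate 3. With 1 array left out, the log2 difference ran from 1.07 without RWPE1-CTRL replicate 1 to 1.74 without RWPE1-CTRL replicate 3. Groups that do not overlap were common on these arrays, with 9.73% of the 14884 genes separated in one direction or the other.

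**Figure D1:**
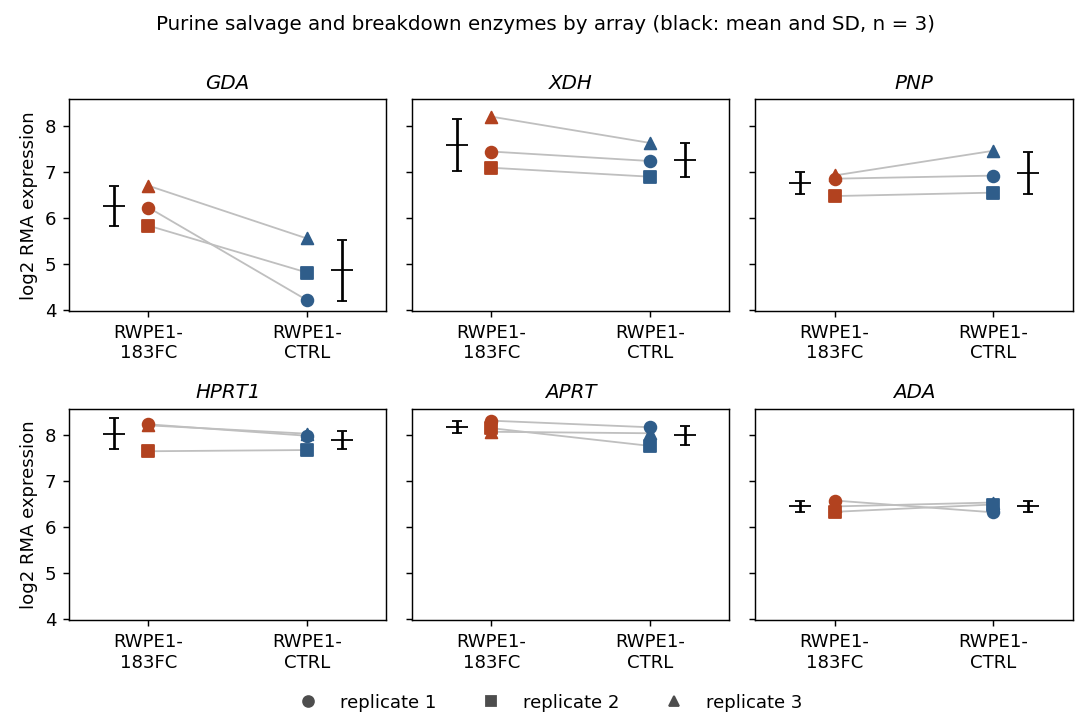
Log2 RMA expression of the 6 enzymes (y axis) on each array of RWPE1-183FC (left, red) and RWPE1-CTRL (right, blue). Symbols give the replicate number, grey lines join arrays of the same number, and black bars are the mean and SD of 3 arrays. The groups are separate for GDA, with 5.83 as the lowest RWPE1-183FC value and 5.55 as the highest RWPE1-CTRL value, and overlap for the other 5 enzymes.

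XDH acts directly after GDA and had the next largest difference. It was at 7.44, 7.09 and 8.20 in RWPE1-183FC replicates 1, 2 and 3, against 7.24, 6.90 and 7.63 in RWPE1-CTRL. The groups overlapped. Within each replicate number the RWPE1-183FC array was the higher one, by 0.21, 0.19 and 0.57. No label states that arrays of the same number are pairs. The share of all genes with the same sign in every replicate number was not counted, here or for the genes below. The log2 difference of 0.32 (95% interval -0.12 to 0.77) did not pass limma's test (adjusted p = 0.999). With no filter on genes, the interval was -0.31 to 0.95. With 1 array left out, the log2 difference ran from 0.01 without RWPE1-183FC replicate 3 to 0.57 without RWPE1-183FC replicate 2. Leaving out RWPE1-CTRL replicate 2 gave 0.145, and leaving out RWPE1-CTRL replicate 3 gave 0.51. When replicate numbers were blocked, limma gave an adjusted p of 0.564. With the filter dropped as well, a fit added after seeing the data, the adjusted p from limma was 0.596 (unadjusted p = 0.0469). The share of all genes with an unadjusted p under 0.05 in that fit was not counted.

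PNP, which supplies guanine to GDA, had a lower mean in RWPE1-183FC. It was at 6.85, 6.47 and 6.92 in RWPE1-183FC and at 6.92, 6.55 and 7.46 in RWPE1-CTRL. The groups overlapped, and the log2 difference of -0.23 (95% interval -0.67 to 0.22) did not pass limma's test (adjusted p = 0.999). Within each replicate number the RWPE1-183FC array was the lower one, by 0.07, 0.07 and 0.54. Without RWPE1-CTRL replicate 3, the highest of the 6 arrays, the difference of group means was 0.02. The second, dimmer PNP cluster gave a log2 difference of -0.29.

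HPRT1, which returns guanine to the nucleotide pool, was at 8.24, 7.65 and 8.22 in RWPE1-183FC, against 7.99, 7.68 and 8.03 in RWPE1-CTRL. The ranges overlapped, since replicate 2 was the lowest array of both groups. Its log2 difference was 0.13 (95% interval -0.30 to 0.57, adjusted p = 0.999 from limma). APRT, the adenine counterpart of HPRT1, was at 8.32, 8.15 and 8.07 in RWPE1-183FC and at 8.17, 7.77 and 8.04 in RWPE1-CTRL. The RWPE1-183FC array was the higher one in all 3 replicate numbers, but the groups overlapped. The log2 difference of APRT was 0.19 (95% interval -0.25 to 0.62, adjusted p = 0.999 from limma).

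ADA, at the entry of adenosine into breakdown, varied least among the 6 enzymes. It was at 6.58, 6.33 and 6.45 in RWPE1-183FC, against 6.32, 6.49 and 6.54 in RWPE1-CTRL. Its variance was below the limit of the filter, so it had no test with the filter. In the fit with no filter its log2 difference was 0.00 (95% interval -0.32 to 0.33, adjusted p = 0.9998 from limma).

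Of the 5 enzymes beside GDA, 4 passed the filter and 0 were called at a false discovery rate under 0.2 and a change over 1.5-fold. At an unadjusted p under 0.05, 0 of them passed in the limma fits with and without the filter that did not block replicates, where 4.74% and 4.78% of all genes passed. GDA itself was called with the filter, the contrast for which it was chosen. In that fit 0.939% of 9583 genes were called in either direction and 0.501% were called higher. At that share, the lack of a call among the other enzymes does not set them apart from other genes. With no filter 0.242% of 14884 genes were called, and GDA was not among them. With no filter, the 95% intervals of XDH and PNP reached past a 1.5-fold change, at 0.809 to 1.94-fold and 0.597 to 1.22-fold, so that a change of this size is compatible with these arrays. Those of HPRT1, APRT and ADA did not reach 1.5-fold in the fit with no filter, at 0.814 to 1.48-fold, 0.891 to 1.45-fold and 0.801 to 1.25-fold. With the filter, the interval of APRT reached 1.54-fold.

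**Figure D2:**
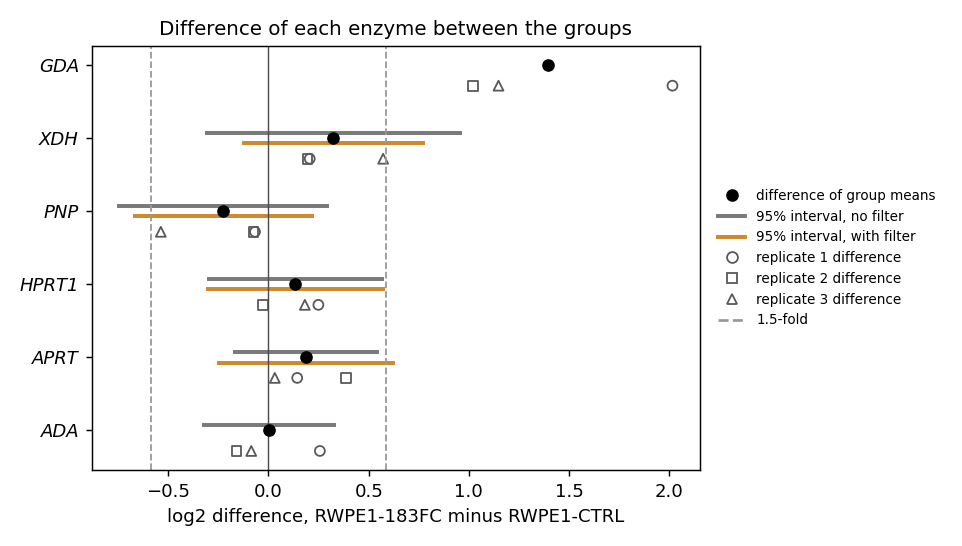
Log2 difference of each enzyme between RWPE1-183FC and RWPE1-CTRL (x axis). Black points are differences of group means, open symbols are differences between arrays of the same replicate number, and bars are 95% intervals from limma with no filter (grey) and with the filter (orange). GDA has no interval because it was chosen for this difference, ADA was removed by the filter, and dashed lines mark a 1.5-fold change. GDA lies at 1.40 and the other 5 enzymes lie between -0.23 and 0.32.

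XDH, PNP and HPRT1 were lowest in replicate 2 in both groups. In RWPE1-183FC, replicate 2 was below the mean of replicates 1 and 3 by 0.73 for XDH, 0.41 for PNP and 0.58 for HPRT1. In RWPE1-CTRL, the same comparison gave 0.54 for XDH, 0.64 for PNP and 0.33 for HPRT1. These shifts were larger than the differences between the groups for the same genes. APRT and ADA did not share this pattern, with replicate 2 at -0.04 and -0.18 from the mean of the others in RWPE1-183FC, and at -0.34 and 0.06 in RWPE1-CTRL. GDA replicate 2 was 0.63 below the mean of the other replicates in RWPE1-183FC and 0.07 below it in RWPE1-CTRL. Over the 6 arrays, GDA had a Pearson correlation of 0.686 with XDH, 0.485 with HPRT1, 0.402 with ADA, 0.333 with APRT and 0.068 with PNP. These describe 6 arrays that share a group difference and replicate numbers.

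Beyond the 6 enzymes, 87 genes of nucleotide metabolism and its relatives were measured in 7 lists. Of the 73 that passed the filter, 0 were called higher and 1 was called lower in RWPE1-183FC. Among all 9583 genes tested with the filter, 0.939% were called in either direction. At that share a list this short would mostly hold no called gene. The lists below without a call are therefore not set apart from other genes by it. The median log2 difference of the 87 genes was 0.01, as it was over all 14884 genes. An unadjusted p under 0.05 from limma was found for 2 of them, ENPP1 and SAMHD1, which is 2.74% with the filter and 2.30% without it. Over all genes this share was 4.74% with the filter and 4.78% without it. The 2 lists of purine and urate transporters and of DLG scaffold partners of GDA had no gene on the annotated table (0 measured) and are left out.

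Of the other enzymes of purine salvage and breakdown, 14 of 25 were measured and none of the 12 past the filter was called. Their median log2 difference was -0.02. SAMHD1, which cleaves deoxynucleotides, was at 6.43, 6.48 and 6.97 in RWPE1-183FC, against 6.92, 6.98 and 7.37 in RWPE1-CTRL. It was the lower one in RWPE1-183FC in all 3 replicate numbers, by 0.40 to 0.50, although the groups overlapped. Its log2 difference of -0.46 did not pass limma's test (unadjusted p = 0.0383, adjusted p = 0.941). ADK, which phosphorylates adenosine and so competes with ADA, was at 8.60, 7.62 and 8.52 in RWPE1-183FC and at 8.98, 8.25 and 8.81 in RWPE1-CTRL. It was lower in RWPE1-183FC in all 3 replicate numbers, by 0.29 to 0.63, and its log2 difference was -0.44 (adjusted p = 0.999 from limma). GMPR, which converts GMP to IMP, was the one gene of the 87 with no overlap (1.15%, against 9.73% of all genes), at 4.91, 4.65 and 4.43 in RWPE1-183FC and 4.37, 4.39 and 4.41 in RWPE1-CTRL. In replicate 3 the 2 groups were only 0.01 apart, and its log2 difference of 0.27 did not pass the same test (adjusted p = 0.999).

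Purine synthesis de novo, the other source of IMP, AMP and GMP, stood near 0 as a list. Of 19 genes 14 were measured, with differences from -0.14 to 0.18 and a median of 0.03, and none of the 11 past the filter was called. The largest were the subunits PRPSAP2 (0.18) and PRPSAP1 (0.17), which associate with the enzyme that makes phosphoribosyl pyrophosphate, the co-substrate of HPRT1 and APRT. A further list held genes that make the molybdenum cofactor that XDH needs and enzymes that use it, XDH included. All 10 of 10 were measured, with a median of 0.01, and none was called. After XDH itself, the largest among them was SUOX, sulfite oxidase, at 0.22.

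The one called gene of the lists was ENPP1, a surface enzyme that cleaves extracellular ATP. It was at 3.31, 3.25 and 3.65 in RWPE1-183FC, against 4.64, 3.49 and 4.70 in RWPE1-CTRL. The groups overlapped, since RWPE1-CTRL replicate 2 was low. The log2 difference of ENPP1 was -0.87 (SE 0.23, adjusted p = 0.0332 from limma). It was not called without the filter (adjusted p = 0.887), nor with the filter without RWPE1-183FC replicate 1, RWPE1-CTRL replicate 1 or RWPE1-CTRL replicate 3. Its RWPE1-183FC values were below the array medians, so that the size of the fall is uncertain. The other 14 measured genes of extracellular nucleotides and adenosine receptors had differences from -0.31 to 0.30 and none was called.

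Pyrimidine metabolism (15 of 22 genes measured) had a median of 0.00 and no called gene. Its largest differences were those of CTPS1, which makes CTP, at -0.25, and DPYS, a dihydropyrimidinase, at -0.21. Nucleotide kinases and ribonucleotide reductase (11 of 19) had a median of 0.00 and no called gene, with NME4 at -0.27 and AK9 at 0.22. The amidohydrolase relatives of GDA (15 of 20) had a median of 0.02 and no called gene, with CRMP1 at 0.22 and DPYS at -0.21.

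**Figure D3:**
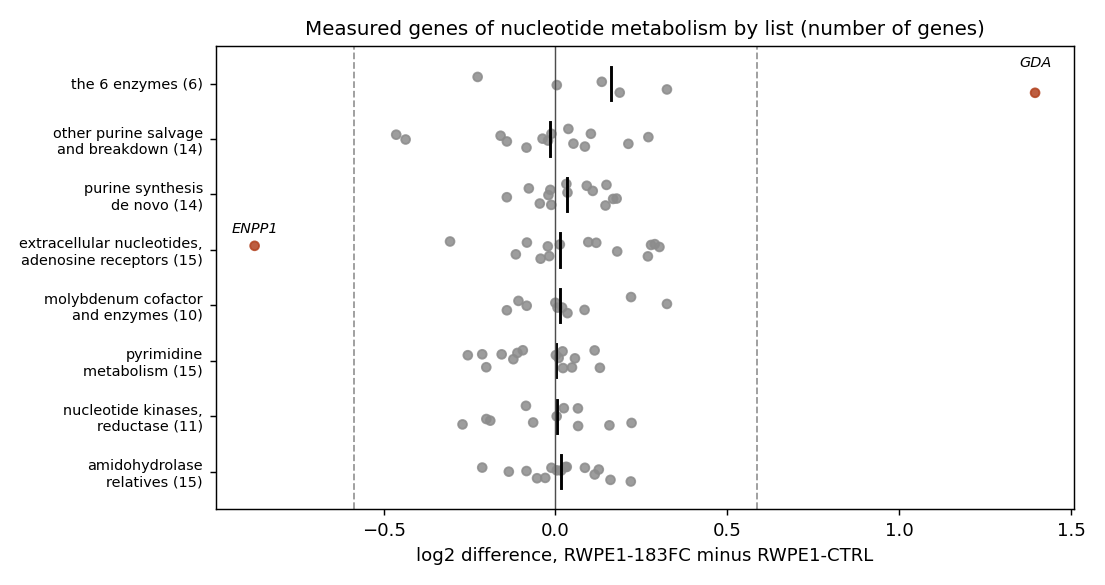
Log2 difference between RWPE1-183FC and RWPE1-CTRL (x axis) for each measured gene of 8 lists (rows, with the number of genes; some genes are in 2 lists). Black ticks are list medians, red points are genes called with the filter and dashed lines mark a 1.5-fold change. GDA at 1.40 and ENPP1 at -0.87 are the points outside the dashed lines.

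GDA lies on chromosome 9. The nearest measured genes on either side were not called, C9orf57 (2.08 in RWPE1-183FC and 2.11 in RWPE1-CTRL) and TMC1 (3.22 in RWPE1-183FC and 2.99 in RWPE1-CTRL). Both were removed by the filter and were below the array medians. Of 398 genes of chromosome 9 that passed the filter, 6 were called. Without GDA, which was selected, 1.26% were called, against 0.939% of all genes tested. The other 5 were TNC (log2 difference 1.35), PTGS1 (0.94) and MIR31 (0.77), which were higher, and MIR147A (-1.04) and MIR3911 (-0.86), which were lower. TNC encodes the matrix protein tenascin C and PTGS1 a prostaglandin synthase.

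Among the called genes, those whose values followed GDA most closely over the 6 arrays were MAP3K5 and MIR31 (both Pearson r = 0.922), ROR1 (0.910), DLX3 (0.889) and PCDHB2 (0.887). MAP3K5 is a stress kinase, ROR1 a receptor of the tyrosine kinase-like family, DLX3 a homeobox factor and PCDHB2 a protocadherin. The most opposite were SSBP2 (-0.931), CYYR1 (-0.925), SFMBT2 (-0.887), KRTAP6-1 (-0.875) and FN1 (-0.851). All called genes differ between the groups, which sets much of these correlations. For deviations from the group means, the correlation with GDA was 0.57 to 0.762 for the first 5 and -0.34 to -0.821 for the other 5. These genes were picked on the correlation over the 6 arrays, to which the deviations contribute, so these values are no separate check.

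The RefSeq promoter windows of the 6 enzymes differed in a way that the choice of genes did not use. They were compared over 250 bases before the annotated start. A CCAAT box (CCAAT on either strand) was found in the windows of GDA, XDH and PNP and not in those of HPRT1, APRT and ADA, and in 32.0% of 35114 promoter windows. A GC box (GGGCGG on either strand) was found 1 time for GDA, 2 times for PNP, 4 times for HPRT1, 3 times for APRT and 5 times for ADA, with overlapping matches counted, and not for XDH. It was found in 42.6% of all windows. TATAAA was found in none of the 6 windows and in 10.7% of all. The ratio of observed to expected CpG was 0.58 for GDA, 0.22 for XDH and 0.51 for PNP, against 0.87 for HPRT1, 1.07 for APRT and 1.09 for ADA, and its median over all windows was 0.56.

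The stretches around the CCAAT boxes are shown so that the windows that share this feature can be compared. Each is written in the direction of its gene in GRCh38.p14, with the box, here on the opposite strand, in capitals.
GDA (chr9:72149352-72149376, plus strand): gaaaaatcctATTGGcattgaggag
XDH, first box (chr2:31414775-31414799, minus strand): gttccctcccATTGGtggaccttat
XDH, second box (chr2:31414752-31414776, minus strand): atttcattttATTGGgaggcgtaac
PNP (chr14:20469341-20469365, plus strand): ctcgcttgccATTGGctggggactc
The whole window of GDA, the enzyme that differed between the groups, is chr9:72149190-72149439 on the plus strand, with the CCAAT and GC boxes in capitals.
GDA window: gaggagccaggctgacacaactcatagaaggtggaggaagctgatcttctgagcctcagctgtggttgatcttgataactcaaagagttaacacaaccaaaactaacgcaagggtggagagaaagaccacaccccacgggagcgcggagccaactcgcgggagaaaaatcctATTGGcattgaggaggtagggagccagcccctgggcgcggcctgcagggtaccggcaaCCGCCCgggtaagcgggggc
These matches are letters in a window and were not tested as sites of any factor.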

How the data were processed

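The values were deposited on the log2 scale, 1 per transcript cluster and array. The authors obtained them by RMA (background correction, normalisation between arrays, summary of probes). The methods credit oligo, whereas Partek and RMA stand in the submitters' processing notes, and versions are not given in the sources used here. The sources differ on the array version, and the values are on Human Gene 2.0 ST clusters. Of 53617 clusters, 16098 carried 1 gene symbol, 0 several and 37519 none. All 16098 matched RefSeq (GRCh38.p14) by Entrez identifier. The brightest cluster per symbol gave 14884 genes.

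Following the published filter, a gene was dropped when its median or its variance fell below the 20th percentile. The remaining 9583 genes were fitted across all 6 arrays with lmFit and eBayes (limma 3.58.1, R 4.3.3). A call needed a Benjamini-Hochberg FDR under 0.2 over all genes fitted and a fold change over 1.5. The prior degrees of freedom were 175.8 with the filter and 5.80 without it, so intervals with no filter are given too. The arrays are biological triplicates per the paper, and the labels add no detail of separate cultures, so p-values refer to these samples only. With the filter, p-values and intervals rest mostly on a spread shared by all genes fitted rather than on each gene's own. The SE with the filter was 0.22 for APRT and 0.23 for ENPP1, against 0.16 and 0.29 with no filter. The number of arrays limits the precision. An exact permutation test of 3 arrays against 3 cannot go below p = 0.1.

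Deviations from the group means correlated at 0.101, 0.511 and 0.29 between arrays of replicate numbers 1, 2 and 3, over 14884 genes. All exceeded 0.1, the limit set for treating them as pairs, a pairing that no label states. RWPE1-CTRL replicate 3 correlated at 0.214 with RWPE1-183FC replicate 1.

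The enzymes, lists and tests were chosen with earlier results of these data known. Named in the text were the 6 enzymes, each list's called genes or else the 2 with the largest difference, the 5 called genes most and least correlated with GDA, its nearest measured neighbours and the called genes of its chromosome. GMPR and the markers were added outside this rule. The lists were written from memory. The fit was tested on simulated data. Alternatives covered filter, normalisation, cluster choice, replicate block, array weights, variance trend, threshold and each array left out. Promoter windows and miRs came from RefSeq (GRCh38.p14), without the 50 bases after the start. Figures were drawn with matplotlib 3.10.9.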

Additional observations from a re-analysis of the deposited data

How the results depend on the processing

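The number of called enzymes, 1, was 0 without a filter, with a median filter alone and over all transcript clusters. It was 1, GDA, in the other alternatives, each array left out included. GDA was selected for this contrast, so its call under any setting is a description and carries no support. Of the other 5 enzymes, 0 were called under the 18 alternatives run (ADA was tested only where the filter kept it), and the lowest adjusted p from limma among them was the 0.564 of XDH. In the list of extracellular nucleotides the 1 call, ENPP1, was 0 without a filter, with a median filter alone, over all clusters and with the replicate block and no filter, and 0 to 1 with 1 array left out. The other 6 lists had 0 calls throughout.

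Over the whole table the 90 calls were 36 without a filter, 37 with a median filter alone, 162 with the replicate block, 192 with array weights and 51 at an FDR under 0.05. They were 43 without RWPE1-183FC replicate 1, 152 without RWPE1-183FC replicate 2, 57 without RWPE1-183FC replicate 3 and 58 without RWPE1-CTRL replicate 1. The block changed no call among the 6 enzymes with the filter. With the block and no filter GDA, the selected gene, was called, which is again only a description.

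With 1 array left out, the log2 difference of XDH ran from 0.01 to 0.57, that of PNP from -0.44 to 0.016 and that of ADA from -0.06 to 0.064. The signs turned for PNP without RWPE1-CTRL replicate 3 and for ADA without replicate 1 of either group. GDA, XDH, HPRT1 and APRT kept their sign under all alternatives run. The fits without both replicate 2 arrays and with the block and no filter were added after seeing the data. The cause of these changes was not tested.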
